A study of Mus musculus with 2 samples.

Results

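Tmsb4x, Tmsb10, Actb, Actg1, Pfn1, Cfl1, Coro1a and Arpc1b are genes of the thymosin and actin system, and they were followed by symbol through the single-cell RNA of mouse bone marrow. They are 8 of the 32285 genes in the matrices, and all 8 were detected in both libraries. The control library came from a Ddx41fl/fl mouse without VavCre and with wild-type cGas, labelled WT. The DKO library came from a VavCre:Ddx41 fl/fl mouse that was also cGAS-/-. Both mice carried the floxed Ddx41 alleles and were 2 months old, and the femoral marrow of each was flushed with PBS and sequenced without a described sort. VavCre is driven by a promoter active in blood cells from the stem cell on and also in endothelium, so the genotype was not limited to red cell precursors. Each genotype is 1 mouse and 1 library: no test between genotypes could be made, cells are not replicates, and every interval below is a 95% interval that covers counting error only.

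Actin exists in cells as single molecules (monomers) and as filaments, and the traffic between the forms shapes the cell cortex. The β-thymosins encoded by Tmsb4x and Tmsb10 hold monomers in reserve, Actb and Actg1 encode the cytoplasmic β- and γ-actins, profilin-1 (Pfn1) charges monomers and delivers them to growing ends, and cofilin-1 (Cfl1) cuts and unloads old filaments. ARPC1B is a blood cell subunit of the Arp2/3 complex, which starts side branches, and coronin-1A (Coro1a) acts on that complex and on cofilin in leukocytes. Migrating leukocytes and platelet-forming megakaryocytes are rich in this machinery, whereas maturing red cell precursors give up most of their transcripts and keep a membrane skeleton of short actin filaments.

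On GRCm38, with the annotation of GENCODE M21, Tmsb4x lies at chrX:167207093-167209315, Tmsb10 at chr6:72957347-72958748, Actb at chr5:142903115-142906754, Actg1 at chr11:120345690-120348542, Pfn1 at chr11:70651850-70654644 and Coro1a at chr7:126699773-126707787, all on the minus strand. Cfl1 lies at chr19:5490455-5495201 and Arpc1b at chr5:145114215-145130705, both on the plus strand. RefSeq promoter sequences (GRCm38.p6) matched 7 of the 8 members, with 10 entries in all, and Actb had no entry. In the 250 bases before each start, CCAAT was found in Actg1 and Cfl1, and a CArG box, the site form bound by serum response factor, in Actg1. These promoters are shown because they are the only windows among the members with either box, and they belong to the members with one of the largest and with the smallest difference between the genotypes in late erythroid-like cells. The bases outside annotated exons are printed, 5′ to 3′ on the gene's strand, chr11:120348543-120348745 for Actg1 and chr19:5490205-5490454 for Cfl1, and capitals mark CCAAT in both and the CArG box, the second run in capitals, in Actg1.
Actg1: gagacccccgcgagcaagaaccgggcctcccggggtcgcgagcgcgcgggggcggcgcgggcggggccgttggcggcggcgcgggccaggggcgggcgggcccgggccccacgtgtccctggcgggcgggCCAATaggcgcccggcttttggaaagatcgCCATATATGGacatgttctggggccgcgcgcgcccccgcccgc
Cfl1: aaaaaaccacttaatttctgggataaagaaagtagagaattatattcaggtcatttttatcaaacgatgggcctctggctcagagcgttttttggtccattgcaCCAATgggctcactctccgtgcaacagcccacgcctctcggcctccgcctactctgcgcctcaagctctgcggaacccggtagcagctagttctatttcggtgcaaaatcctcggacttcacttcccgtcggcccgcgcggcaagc
Both strands were searched, the CArG box reads the same on both, and it did not overlap CCAAT. Of all 32851 promoter windows of that length, 33.8% held CCAAT and 1.47% held a CArG box. TATAAA, present in 12.4% of all windows, was found in none of the members' windows. A G-quadruplex pattern, written as 4 runs of at least 3 G with 1 to 7 bases between runs, was present in 16.7% of all windows and in those of Tmsb4x, Actg1, Arpc1b and 1 of the 3 starts of Tmsb10. These matches describe letters in a window and were not tied to any expression value.

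The control library held 18563 cells and 117968077 UMIs with a median of 4857 per cell, and the DKO library held 13514 cells and 112741560 UMIs with a median of 6870.5. Ddx41 stood at 20.3 CPM (UMIs of the gene scaled to a fixed library total) in all control cells and 7.99 in all DKO cells, a log2 ratio of -1.35 (-1.46 to -1.24), and Cgas at 13.6 and 7.30 CPM, a log2 ratio of -0.90 (-1.02 to -0.78). How far the counted 3′ ends lie from the deleted parts is not given in the sources used here, so residual UMIs of these genes do not grade the deletions. Of the 1518290 barcodes listed for control, cells had to be picked out during re-analysis, while the 14142 DKO barcodes came preselected, none of them under 500 UMIs, so the genotypes also differ in how cells were chosen. The libraries shared 74 cell barcodes. Clusters were named from marker genes and are written X-like, and 12 classes had at least 50 cells in each library. The early erythroid-like clusters had 8 to 10 of 10 markers raised and the late ones 9 to 12 of 12, and the largest late cluster was led by Hba-a2, Bpgm and Hbb-bs. No unique molecular identifier (UMI) count was scaled by gene length, because each UMI marks 1 transcript read from its 3′ end, and levels of different genes are compared on that scale.

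The 8 genes took 1.83% of all control UMIs and 1.35% of all DKO UMIs. Tmsb4x was the most abundant of them in each of the 10 non-erythroid classes compared, and erythroid-like cells had the lowest levels of it in both libraries. In the control library, Tmsb4x stood at 29198 CPM in megakaryocyte-like, 20039 in neutrophil-like, 19041 in monocyte-like, 16363 in basophil or mast-like and 13191 in T or NK cell-like cells. Dendritic-like (9080 CPM), cKit+ progenitor-like (8508), macrophage-like (7241), B cell-like (6392) and stromal-like cells (4199) followed, then early erythroid-like cells with 495 and late erythroid-like cells with 347. The DKO order was the same except that cKit+ progenitor-like cells (7727 CPM) stood above dendritic-like cells (6791), and no neighbors in either order had overlapping intervals. It ran from 37224 CPM in megakaryocyte-like cells to 209 in early and 113 in late erythroid-like cells. These CPM include hemoglobin UMIs, which lower the other levels. In control, hemoglobin genes took 48.4% of macrophage-like, 33.7% of stromal-like, 26.8% of early erythroid-like and 21.8% of megakaryocyte-like UMIs. In the other non-erythroid classes compared they took at most 6.62%. Without hemoglobin UMIs the 8 genes took 2.45% of control macrophage-like UMIs against 2.28% in dendritic-like cells, and with them 1.27% and 2.17%. The order of classes thus depends on the scale.

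Tmsb10, the second β-thymosin, was distributed quite differently. It was highest in monocyte-like cells (5911 CPM in control, 5146 in DKO), followed by T or NK cell-like (4047 and 3158) and B cell-like cells (2244 and 2170). Neutrophil-like cells, second for Tmsb4x, had 280.4 CPM of Tmsb10 in control and 193 in DKO, and only macrophage-like and erythroid-like cells had less in either library. Tmsb4x UMIs outnumbered those of Tmsb10 by 71.5 to 1 (69.5 to 73.5) in control and 90.4 to 1 (87.5 to 93.5) in DKO neutrophil-like cells, against 3.22 and 3.03 in monocyte-like, 3.26 and 3.34 in T or NK cell-like and 2.85 and 2.35 in B cell-like cells. Neutrophil-like and monocyte-like cells, both myeloid, thus differed widely in this ratio. Within the neutrophil-like cells, the ratio was 65.0 in control and 78.9 in DKO among cells with at least as much Ltf as Retnlg (immature) and 94.1 and 123 among those with more Retnlg (mature). Within the B cell-like cells it was 2.26 and 1.83 in precursors and 4.06 and 4.23 in mature cells. Megakaryocyte-like cells (46.1 and 77.5) and macrophage-like cells (40.3 and 48.3) were the other classes with little Tmsb10 for their Tmsb4x. Tmsb10 shares its 3′ end with copies elsewhere in the genome: 73.6% of the 31-base windows in its last 500 transcript bases also occur in 9 other annotated genes. Of these only Gm9844 is in the matrices, with 599 control and 349 DKO UMIs, 0.430% and 0.422% of those of Tmsb10, and since Cell Ranger counts only reads that map to 1 gene, the level of Tmsb10 is uncertain. The same share was 26.2% for Actb, mostly with Lrrc58, 13% for Cfl1, 1.70% for Pfn1 and 0 for the other members.

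**Figure D1:**
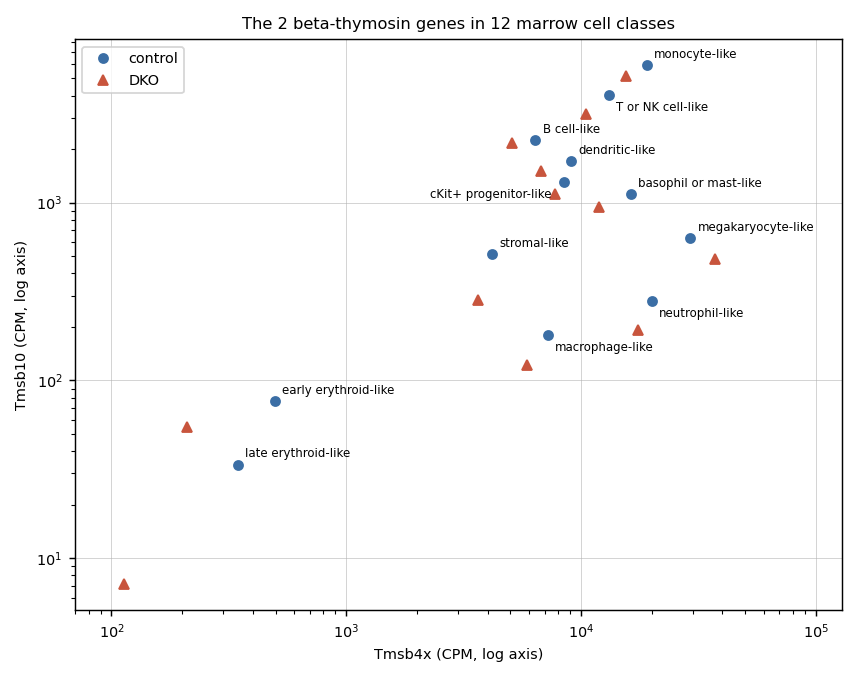
Level of Tmsb4x (x axis, CPM, log scale) against Tmsb10 (y axis, CPM, log scale) in 12 cell classes, 1 point per class and library, with the class named at the control point. Monocyte-like cells lie at the upper right (19041 and 5911 CPM in control), neutrophil-like cells lie far below them at 20039 and 280.4 CPM, and the erythroid-like classes lie at the lower left.

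Actb was the second most abundant member in those 10 classes. It stood at 11562 CPM in control megakaryocyte-like, 10102 in monocyte-like and 9742 in neutrophil-like cells, and at 16618, 8733 and 9740 CPM in the same DKO classes. Early erythroid-like cells kept 2106 CPM of Actb in control and 1773 in DKO, and in control its interval overlapped that of stromal-like cells (2015 CPM, 1933 to 2101). Thus β-actin and Tmsb4x parted in the erythroid lineage: Tmsb4x UMIs were 2.06 times those of Actb in control neutrophil-like cells but 0.235 times in control and 0.118 times in DKO early erythroid-like cells. Actg1, encoding γ-actin, followed Actb at a distance, with 4999 CPM in control megakaryocyte-like, 2977 in monocyte-like, 2068 in neutrophil-like and 224 in early erythroid-like cells. The ratio of Actb to Actg1 UMIs was lowest in megakaryocyte-like (2.31 in control, 2.54 in DKO) and cKit+ progenitor-like cells (2.41 and 2.59). It was highest in erythroid-like cells with 15 to 40% of their UMIs from hemoglobin genes (15.4 in control, 25.2 in DKO) and with 40 to 75% (16.8 and 23.0).

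Profilin and cofilin transcripts went with Actb in staying high in early erythroid-like cells. Pfn1 ranged in control from 600 CPM in stromal-like to 3798 in megakaryocyte-like cells outside the erythroid lineage and stood at 772 in early erythroid-like cells. Cfl1 ranged from 252 CPM in stromal-like to 1278 in monocyte-like cells and stood at 473 in early erythroid-like cells. The branching genes were highest in monocyte-like cells and varied widely among the leukocyte classes. Coro1a stood at 109 CPM in control and 42.3 in DKO macrophage-like cells, against 128 and 104 in stromal-like cells. Arpc1b stood at 229 CPM in control B cell-like cells, against 184 in megakaryocyte-like and 180 in stromal-like cells. Coro1a was highest in monocyte-like (1380 CPM in control, 1373 in DKO) and neutrophil-like cells (1001 and 1055) and stood at 24.4 and 12.8 CPM in early erythroid-like cells. Arpc1b was likewise highest in monocyte-like cells (967 and 919 CPM) and stood at 20 and 11.1 CPM in early erythroid-like cells. Early erythroid-like cells therefore held Actb, Pfn1 and Cfl1 within or near the range of the other control classes and Coro1a and Arpc1b far below it, a grouping made after the values were seen.

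**Figure D2:**
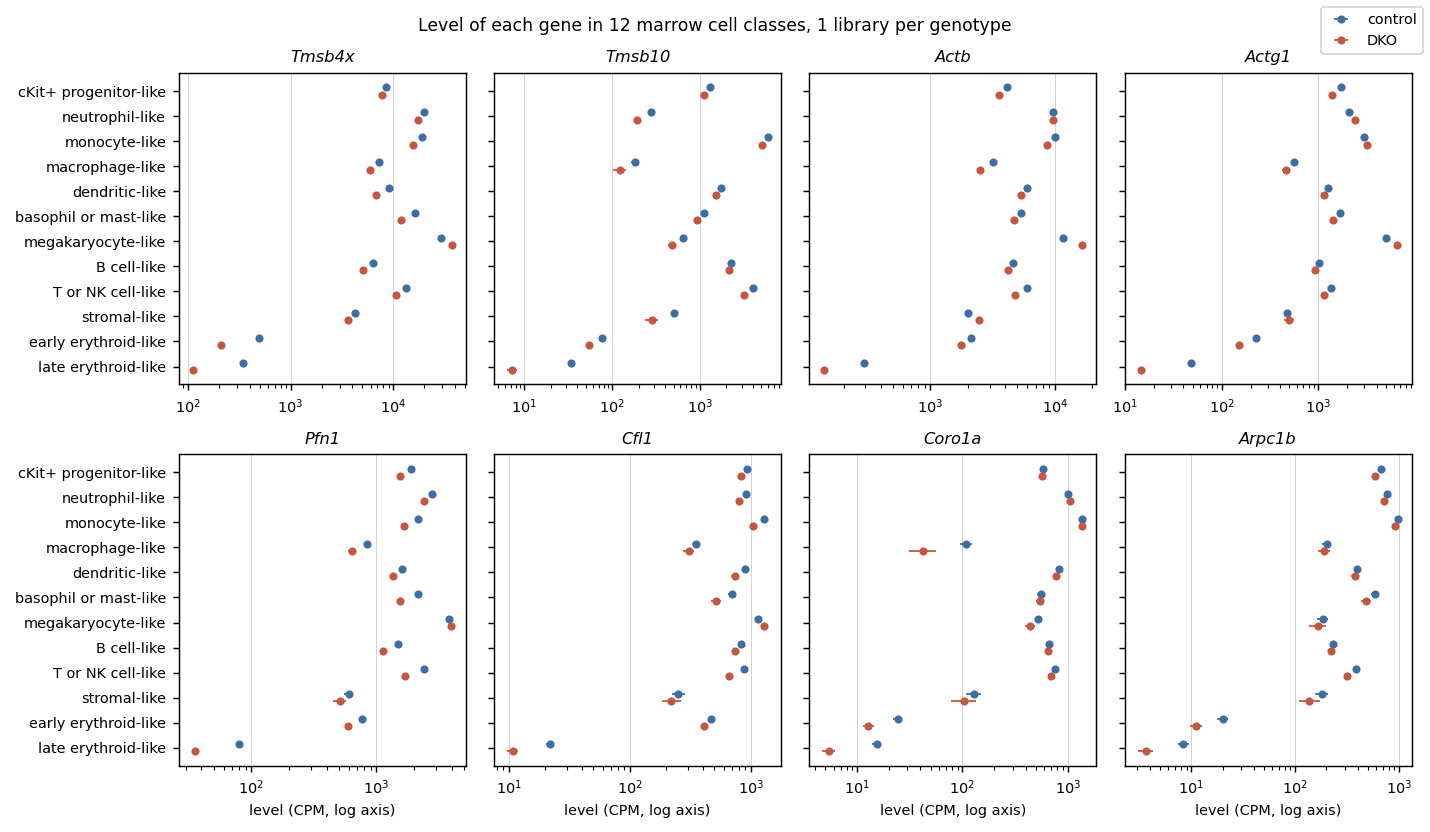
Level of each of the 8 genes (x axis, CPM, log scale) in 12 cell classes (y axis), with 1 point per library and bars for the Poisson 95% interval, which are mostly smaller than the points. Both erythroid-like classes are lowest for Tmsb4x and Tmsb10, while Actb in early erythroid-like cells (2106 CPM in control) is close to its level in stromal-like cells (2015 CPM).

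Late erythroid-like cells, 5702 in control and 4563 in DKO, had lower levels of all 8 genes in the DKO library. Hemoglobin genes took 84.3% of their UMIs in control and 86.9% in DKO, and the median cell had 5326 and 8032 UMIs. Tmsb4x stood at 347 CPM (10404 UMIs) in control and 113 CPM (4170 UMIs) in DKO, and Tmsb10 at 33.6 CPM (1009 UMIs) and 7.19 CPM (265 UMIs). Both thymosins were thus lower in DKO, with log2 ratios of -1.62 (-1.67 to -1.56) and -2.22 (-2.43 to -2.03). Actb stood at 293 CPM (8791 UMIs) and 139 CPM (5124 UMIs), a log2 ratio of -1.08 (-1.13 to -1.03). Actg1 stood at 48.4 CPM (1451 UMIs) and 14.7 CPM (541 UMIs), a log2 ratio of -1.72 (-1.87 to -1.58). The interval of γ-actin lay below that of β-actin, and the ratio of Actb to Actg1 UMIs was 6.06 (5.73 to 6.41) in control and 9.47 (8.67 to 10.4) in DKO. Pfn1 stood at 79.4 and 35.5 CPM and Cfl1 at 21.9 and 10.7 CPM, with log2 ratios of -1.16 (-1.26 to -1.07) and -1.03 (-1.22 to -0.85). Coro1a (15.4 and 5.43 CPM) and Arpc1b (8.37 and 3.64 CPM) had log2 ratios of -1.5 (-1.75 to -1.26) and -1.20 (-1.52 to -0.89).

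In late erythroid-like cells the members had a median log2 ratio of -1.35, against -0.16 over all 742 genes with a mean of at least 20 CPM over the libraries. Of those 742 genes, 11.7% (87) were at least 2-fold lower in DKO and 0.0% (0) at least 2-fold higher. The 5 members that met the minimum, Tmsb4x, Tmsb10, Actb, Actg1 and Pfn1, were all among the 87. Tmsb10 and Actg1 met it only through the control library, so this count is no support for the difference, and the 3 members under the minimum are given above with their own values. Scaling without hemoglobin UMIs moved the median of all genes to 0.11 and that of the 8 genes to -1.08, with all 8 below 0. Of the 8, 4 were still at least 2-fold lower, against 4.31% of the 742 genes. Medians and counts of the 8 in this paragraph include the 3 members under the minimum, whereas the 742 genes all meet it. Coro1a, 1 of the 4, is under it. On mean UMIs per cell the members' median was -0.73 and 2 of the 8, Tmsb10 and Actg1, were at least 2-fold lower, against 0.943% of the 742 genes and a median of all genes of 0.46, with all 8 again below 0. In counts per cell, Tmsb4x stood at 1.82 UMIs per control cell and 0.914 per DKO cell, and Actb at 1.54 and 1.12. In bulk sums of this kind, fewer cells with a transcript and less of it per cell cannot be told apart, so cells were also thinned to 2000 UMIs each. Among 5351 control and 4303 DKO cells of that depth, 45.0% (43.7% to 46.4%) and 17.3% (16.2% to 18.5%) held a Tmsb4x UMI, and 40.1% and 19.9% held an Actb UMI, whereas the unthinned shares were 73.9% and 49.2% for Tmsb4x and 68.3% and 51.2% for Actb. Of the neutrophil genes described next, which erythroid cells should lack, S100a9 was found in 53.0% (51.7% to 54.3%) of the thinned control and 25.1% (23.8% to 26.4%) of the thinned DKO cells and S100a8 in 40.2% and 19.2%, with unthinned shares of 82.3% and 66.0% for S100a9. The shares of Tmsb4x and Actb lay below those of S100a9 in both libraries, and the shares of S100a9 and S100a8 were lower in DKO as well. Those of Tmsb4x and Actb were therefore not read as a difference in the number of expressing cells. How much of them is background was not tested.

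**Figure D3:**
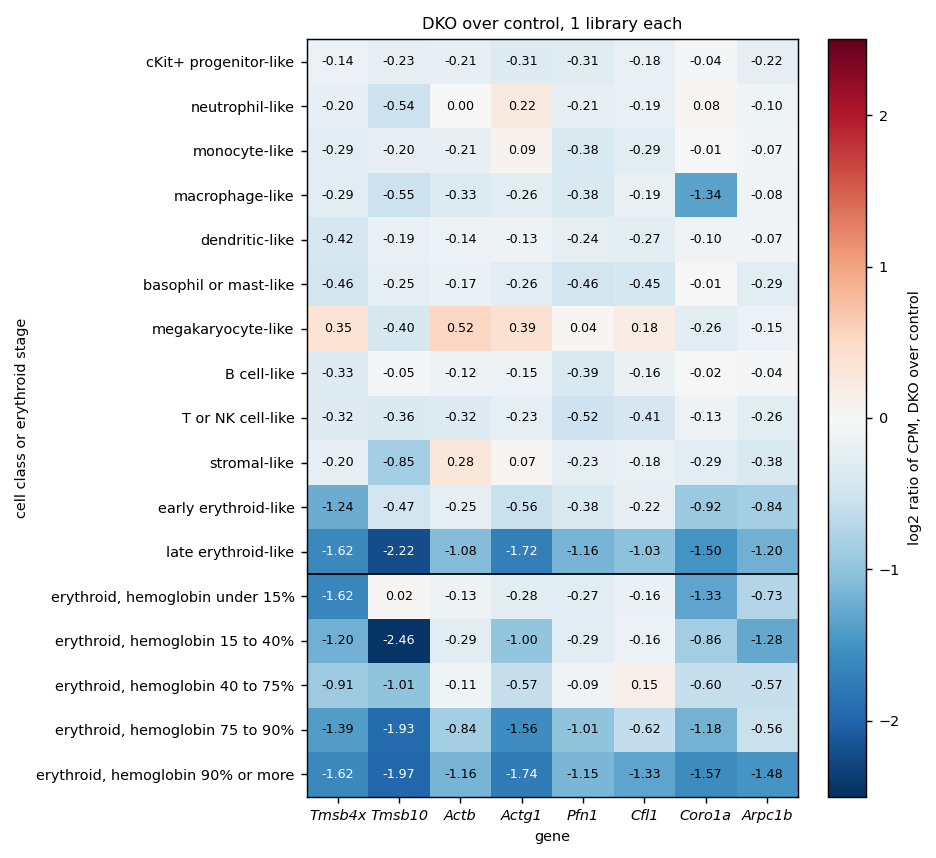
Log2 ratio of CPM, DKO over control, for the 8 genes (columns) in 12 cell classes and, under the line, 5 erythroid stages defined by the share of hemoglobin UMIs (rows). Blue is lower in DKO and red is higher. All 8 genes are lower in late erythroid-like cells (-1.03 to -2.22), while megakaryocyte-like cells are the row with the highest values (Actb 0.52).

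Markers of other cell types moved with this result. A list of 8 neutrophil genes (S100a8, S100a9, Ngp, Camp, Ltf, Lcn2, Retnlg and Lyz2), which are not erythroid genes, summed to 1028 CPM in control and 469 in DKO late erythroid-like cells, a log2 ratio of -1.13, with all 8 lower in DKO and none at 0. In single genes the list ran from 22.1 to 423 CPM in control and from 14.5 to 188 in DKO. A list of 5 B cell genes (Cd74, Cd79a, Cd79b, Igkc and Ighm) summed to 122 and 102 CPM, a log2 ratio of -0.26, with none at 0. If all neutrophil-list UMIs in these cells were free RNA with the make-up of the library's cells as a whole, that RNA could account for at most 40.8% of the Tmsb4x, 58.9% of the Tmsb10, 41.1% of the Actg1, 25.9% of the Actb, 29.6% of the Pfn1, 48.5% of the Cfl1, 55.4% of the Coro1a and 78.1% of the Arpc1b UMIs in control. The same ceilings in DKO were 47.0% for Tmsb4x, 90.6% for Tmsb10, 57.4% for Actg1, 23.4% for Actb, 24.3% for Pfn1, 38.0% for Cfl1, 67.5% for Coro1a and 69.1% for Arpc1b. With the make-up of the 1125245 control barcodes of at most 100 UMIs in place of the cells, the control ceilings ran from 70.1% for Actb to 100% for Arpc1b, and no such barcodes were at hand for DKO. Scaled to the B cell list instead, the ceilings from the cells were higher, at 76.2% for Tmsb4x, 48.4% for Actb, 55.2% for Pfn1 and 76.6% for Actg1 in control. In DKO they were 57.8% for Actb, 60% for Pfn1 and 93.8% for Cfl1, and 100% for Tmsb4x, Tmsb10, Actg1, Coro1a and Arpc1b. When the neutrophil-list ceiling of the cells was subtracted, the log2 ratios were -1.78 for Tmsb4x, -1.03 for Actb, -1.06 for Pfn1, -2.18 for Actg1 and -1.94 for Coro1a, and -0.76 for Cfl1 and -0.69 for Arpc1b. Subtracted Tmsb10 stood at -4.30, but rested on what was left of its 265 DKO UMIs. In the 99 control and 300 DKO late erythroid-like cells with no UMI of either list, Tmsb4x had a log2 ratio of -1.96, Actb of -1.56, Actg1 of -2.15 and Pfn1 of -2.11. Cfl1 and Coro1a both stood at -2.37, Tmsb10 at -0.37 and Arpc1b at -0.79. No intervals were computed for these few cells, so differences between the genes there are not interpreted. In those few cells all 761 genes had a median of -1.14 and 56.6% of them were at least 2-fold lower, as were 6 of the 8 members.

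Doublets had a large bearing on these values. The 176 control and 172 DKO barcodes that were scored as doublets and lay nearest the late erythroid-like cells carried 19288 and 20881 UMIs of the 8 genes, against 25405 and 12135 in the whole class without them. With those barcodes kept, the members' median log2 ratio was -0.74, from -0.32 for Arpc1b to -1.13 for Tmsb10, and 1 of the 8 was at least 2-fold lower, against 5.21% of 844 genes. Single cells also weighed on the sums: the 57 control cells (1%) with the most Tmsb4x held 15.5% of its UMIs and the 46 DKO cells 18.5%, and for Tmsb10 the shares were 34.2% and 30.6%. One control cell held 134 of the 1009 Tmsb10 UMIs. The part of free RNA, doublets and such cells in the remaining difference was not tested.

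Erythroid-like cells of both classes were then divided into 5 stages by their share of hemoglobin UMIs, which rises through terminal erythropoiesis. The stages of under 15%, 15 to 40%, 40 to 75%, 75 to 90% and at least 90% held 1026, 557, 1204, 3497 and 1379 control cells and 716, 499, 1213, 1391 and 2585 DKO cells. The largest stage was 75 to 90% in control and 90% or more in DKO, so the late class pools the stages in different proportions. The earliest stage was shallow, with a median of 1365 UMIs in control and 1584 in DKO, against 5128 to 11278 in the other stages.

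Actb, Pfn1 and Cfl1 were close between the genotypes until hemoglobin passed 75%. Actb stood at 2551 CPM in control and 2334 in DKO under 15%, at 2170 and 1781 at 15 to 40% and at 1116 and 1032 at 40 to 75%, with log2 ratios of -0.13, -0.29 and -0.11. At 75 to 90% it stood at 252 and 141 CPM (-0.84, -0.92 to -0.76) and at 90% or more at 173 and 77.3 CPM (-1.16, -1.27 to -1.05). Pfn1 had log2 ratios of -0.27, -0.29 and -0.09 in the first stages and -1.01 and -1.15 in the last. Cfl1 went from 635 and 566 CPM under 15% to 185 and 206 CPM at 40 to 75%, where it was higher in DKO (0.15, 0.06 to 0.25), and then to 16.3 and 10.6 CPM (-0.62) and 12.9 and 5.15 CPM (-1.33). For these genes the step between 40 to 75% and 75 to 90% was the steepest of the series in both libraries on CPM, and without hemoglobin UMIs it was so for all but Pfn1 in control, which stood at 641 and 505 CPM there after 1220 and 887. Per cell, Actb went from 7.46 to 1.39 UMIs over that step in control and from 11.2 to 1.19 in DKO, and Cfl1 from 1.24 to 0.0898 and from 2.22 to 0.0891. DKO cells thus had more Actb UMIs per cell before that step and fewer after it. At 40 to 75% the median cell had 6417.5 UMIs in control and 10614 in DKO, while Actb was lower in DKO on CPM. The part of depth in the counts per cell was not tested. With the make-up of the library's cells, the neutrophil-list ceiling of Actb, Pfn1 and Cfl1 was at most 11% in any stage under 75% hemoglobin. From there on it was 21.4% to 65.5%. In control, the make-up of the barcodes of at most 100 UMIs gave higher neutrophil-list ceilings for these genes. Scaled to the B cell list, the ceiling from the cells reached 26.2% for Actb, 34.2% for Pfn1 and 22.1% for Cfl1 in control cells of 40 to 75%. With the make-up of the barcodes of at most 100 UMIs these were 52.1%, 64.7% and 26.2%. By the B cell list the ceiling was 51.3% to 100% from 75% on.

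Tmsb4x was lower in DKO at every stage. It stood at 804 and 261 CPM under 15% (-1.62, -1.70 to -1.55), 515 and 224 CPM at 15 to 40% (-1.20), 342 and 182 CPM at 40 to 75% (-0.91), 305 and 116 CPM at 75 to 90% (-1.39) and 268 and 87.5 CPM at 90% or more (-1.62). Its course over the stages depended on the scale. Scaled without hemoglobin UMIs, Tmsb4x stood at 840.1, 718 and 830.3 CPM in the first stages and at 2170 and 3204 CPM in the last in control, and went up at every step in DKO, from 271 through 313 and 434 to 765 and 1184 CPM. Per cell it went down from 5.04 to 1.4 UMIs in control and from 2.69 to 0.709 in DKO. On the scale without hemoglobin, Actb went down between the same stages, from 2665 to 1795 and 2064 CPM in control and from 2426 to 929 and 1046 CPM in DKO, so β-actin ended below and Tmsb4x above its starting level. The lists of genes that erythroid cells should lack also ended above their starting level on this scale. From the first to the last stage, the neutrophil list went from 3976 to 9774 CPM in control and from 1024 to 4542 in DKO. The B cell list went from 229 to 1140 CPM and from 79.3 to 884. Their part in the course of Tmsb4x was not tested. On CPM of all UMIs, the neutrophil list moved with Tmsb4x in the earliest stage, at 3806 CPM in control and 986 in DKO (-1.95). It was nearly level at 15 to 40% (1515 and 1435 CPM, -0.08). At 40 to 75% it was lower in DKO (982 and 772 CPM, -0.35, -0.39 to -0.31), as were 7 of its 8 genes. The B cell list was lower in DKO in both of these stages (-1.85 and -1.11), so no stage was level for both lists. The neutrophil-list ceiling of Tmsb4x was 39.5% to 65.2% over the control stages and 42.6% to 72.9% over the DKO stages. Scaled to the B cell list it was 59.1% to 100% and 37.3% to 100%, and with the make-up of the barcodes of at most 100 UMIs the control ceiling was 74.6% to 100% by the neutrophil list and 81.9% to 100% by the B cell list.

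Tmsb10 and Actg1 had their own courses. Tmsb10 was level under 15% hemoglobin, with 134 CPM in control and 136 in DKO (0.02, -0.11 to 0.15). Few cells weighed on that value too: 10 of the 1026 control cells held 27.6% of its UMIs and 7 of the 716 DKO cells 36.6%. A single DKO cell held 123 UMIs. At 15 to 40% Tmsb10 stood at 95.1 and 17.2 CPM (-2.46, -2.81 to -2.15). That gap rested on few cells: 6 of the 557 control cells held 66.4% of the 434 Tmsb10 UMIs of the stage, 134 of them in 1 cell, and 5 of the 499 DKO cells held 55.8% of 95. At 40 to 75% the levels were 26.1 and 12.9 CPM (-1.01), and in the last stages 27.3 and 7.08 CPM (-1.93) and 22.1 and 5.63 CPM (-1.97). Actg1 went from 405 and 334 CPM under 15% (-0.28) to 141 and 70.6 CPM at 15 to 40% (-1.0), 66.6 and 44.9 CPM at 40 to 75% (-0.57), 44.8 and 15.1 CPM at 75 to 90% (-1.56) and 38.6 and 11.5 CPM at 90% or more (-1.74). γ-Actin therefore fell away from β-actin early, at 15 to 40%, in both libraries. Coro1a was lower in DKO at every stage (-0.60 to -1.57), as was Arpc1b (-0.56 to -1.48), on sums of 71 to 266 and 41 to 214 UMIs per stage and library.

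**Figure D4:**
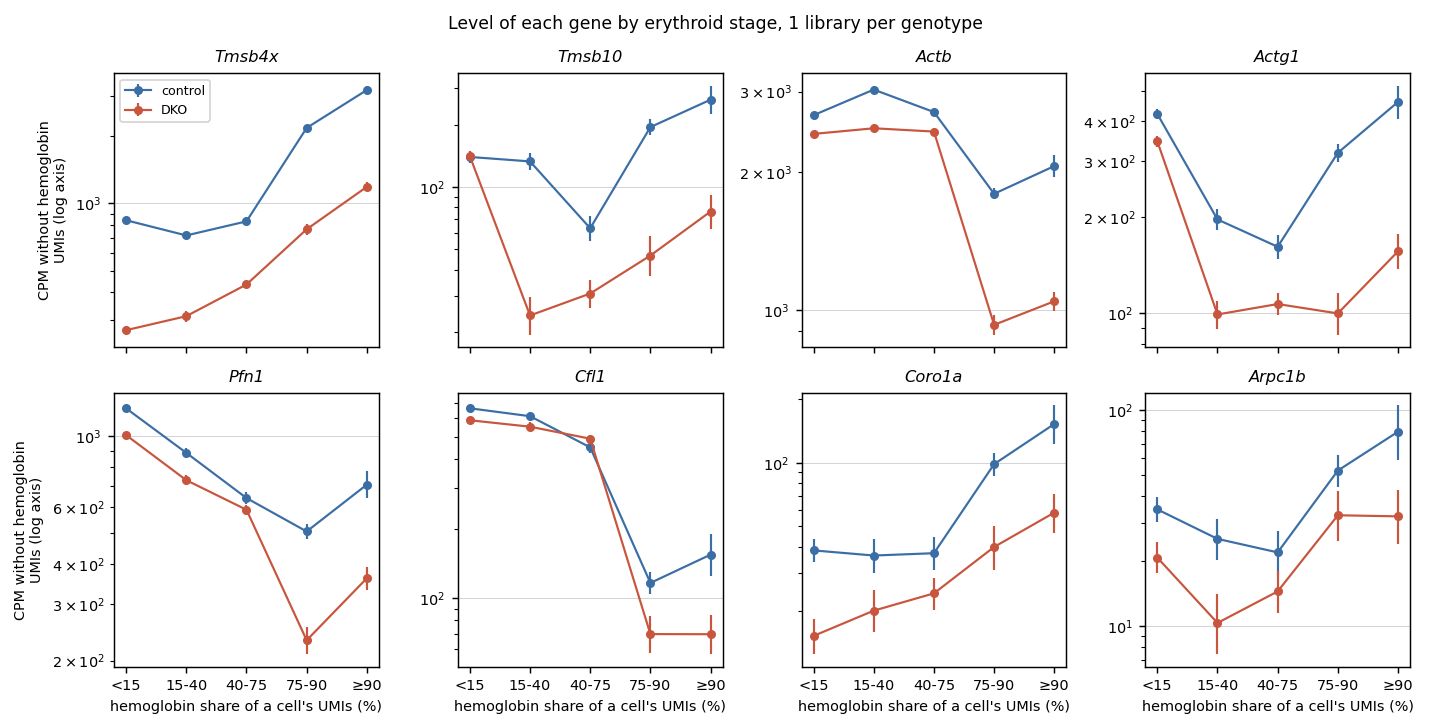
Level of each of the 8 genes (y axis, CPM computed without hemoglobin UMIs, log scale) against the share of hemoglobin UMIs in erythroid-like cells (x axis, 5 stages), with 1 line per library and bars for the Poisson 95% interval. Tmsb4x ends above its starting level in both libraries on this scale, with DKO below control at every stage, while Cfl1 drops after 40 to 75%. The neutrophil and B cell lists, not drawn here, also end above theirs on this scale.

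Counted against the background of each stage, members at least 2-fold lower in DKO were Tmsb4x and Coro1a under 15%, where 1.03% of 5723 genes were, and Tmsb4x and Tmsb10 at 15 to 40%, where 0.953% of 4197 genes were. None of the 5 members that met the minimum was at 40 to 75%, where 1.22% of 2700 genes were. At 75 to 90%, Tmsb4x, Actg1 and Pfn1 of the 4 members that met it were, against 4.42% of 678 genes. At 90% or more all 4 that met it, Tmsb4x, Actb, Actg1 and Pfn1, were, against 16.9% of 326 genes. The last stages hold few genes of that level and have the highest background of genes at least 2-fold lower. Their backgrounds differed in direction. At 75 to 90%, 22.3% (151) of the genes were at least 2-fold higher in DKO, and the median of all genes was 0.30. At 90% or more, 2.15% were at least 2-fold higher, and the median was -0.22. Coro1a under 15%, Tmsb10 at 15 to 40% and Actg1 in the last stages met the minimum only through the control library.

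**Figure D5:**
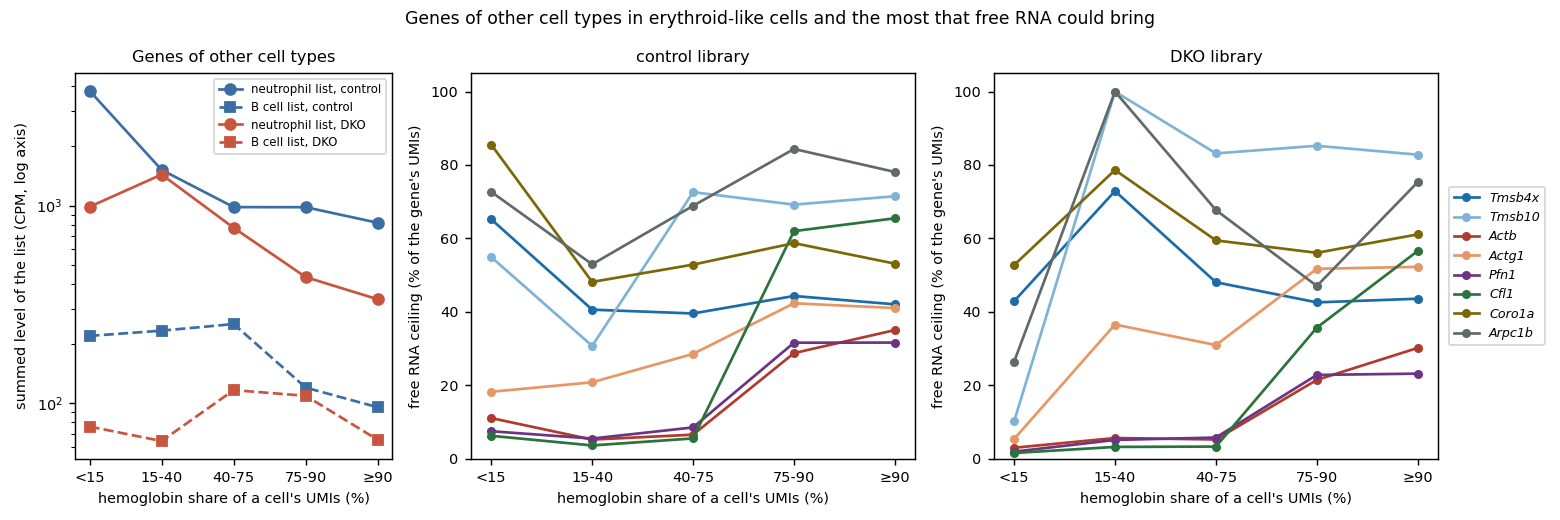
Left, summed level (y axis, CPM, log scale) of 8 neutrophil genes (circles) and 5 B cell genes (squares) by erythroid stage (x axis, % hemoglobin UMIs) in each library. Middle and right, the neutrophil-list ceiling of each gene's UMIs (y axis, %) in control and DKO, for free RNA with the make-up of the library's cells. It is at most 11% for Actb, Pfn1 and Cfl1 under 75% hemoglobin and 39.5% to 72.9% for Tmsb4x. In control, the make-up of the barcodes of at most 100 UMIs, which is not drawn, gave higher ceilings for these genes.

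The early erythroid-like class, 1961 control and 1841 DKO cells, differed less. Tmsb4x stood at 495 CPM (7661 UMIs) and 209 CPM (4581 UMIs), a log2 ratio of -1.24 (-1.29 to -1.19), and it was the only one of the 6 members of at least 20 CPM that was at least 2-fold lower. Of 4560 genes of that level, 0.768% (35) were at least 2-fold lower and 0.0877% (4) at least 2-fold higher. Coro1a (-0.92) and Arpc1b (-0.84) followed, then Actg1 (-0.56), Tmsb10 (-0.47), Pfn1 (-0.38), Actb (-0.25) and Cfl1 (-0.22), with every interval below 0. The median of all genes was -0.01. Per cell, the order of the libraries turned for 5 of the 8 genes: Actb had 16.6 UMIs per control cell and 21.1 per DKO cell, Pfn1 6.09 and 7.04 and Cfl1 3.73 and 4.83, with smaller differences for Actg1 and Tmsb10. The DKO cells of this class were also deeper, with a median of 10762 UMIs against 6534 in control. The part of depth in the counts per cell was not tested. The neutrophil list stood at 2145 and 923 CPM (-1.22) and the B cell list at 248 and 62.0 CPM (-2.0), beside the difference of Tmsb4x, and their part in it was not tested.

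Outside the erythroid lineage the differences were smaller. Over 10 classes and 8 genes the log2 ratios lay between -0.85 (Tmsb10 in stromal-like cells, 511 and 282 CPM) and 0.52 (Actb in megakaryocyte-like cells), with 1 exception. Coro1a in macrophage-like cells stood at 109 and 42.3 CPM (239 and 49 UMIs), a log2 ratio of -1.34 (-1.84 to -0.92). In that class 2.31% of 4208 genes were at least 2-fold lower. The 8 control cells (1%) with the most Coro1a held 43.9% of its UMIs there, and the 4 DKO cells 53.1%. The neutrophil list in macrophage-like cells stood at 18657 and 6969 CPM (-1.42), and its part in the Coro1a value was not tested. In neutrophil-like cells Actb was at the same level in both libraries (9742 and 9740 CPM, 0.00, -0.01 to 0.01), and Tmsb10 (-0.54, 280.4 and 193 CPM), Tmsb4x (-0.20), Pfn1 (-0.21) and Cfl1 (-0.19) were lower in DKO, where the median of all genes was 0.18. In B cell-like cells the ratios ran from -0.39 (Pfn1, 1480 and 1133 CPM) to -0.02 (Coro1a), in T or NK cell-like cells from -0.52 (Pfn1, 2414 and 1684 CPM) to -0.13 (Coro1a), and in monocyte-like cells from -0.38 (Pfn1) to 0.09 (Actg1). Pfn1 was therefore the lowest member in the lymphoid and monocyte-like cells. The neutrophil list was also lower in DKO in these classes, with log2 ratios of -0.73 in B cell-like, -0.41 in T or NK cell-like and -0.42 in monocyte-like cells, and its part in the ratios was not tested. Megakaryocyte-like cells, 386 and 107, were the class where several members were higher in DKO: Tmsb4x stood at 29198 and 37224 CPM (0.35), Actb at 11562 and 16618 (0.52) and Actg1 at 4999 and 6544 (0.39), whereas Tmsb10 (-0.40) and Coro1a (-0.26) were lower and the interval of Arpc1b included 0. A single DKO cell of 111724 UMIs held 37.2% of the Tmsb4x, 28.0% of the Actb and 26.3% of the Actg1 UMIs of its class. Without it, Tmsb4x stood at -0.047 (-0.074 to -0.020), Actb at 0.32 and Actg1 at 0.22, and without the corresponding control cell of 85820 UMIs as well, they stood at 0.16, 0.45 and 0.43. The neutrophil list in that class stood at 16814 CPM in control and 1412 in DKO (-3.57), and the median cell had 1385 and 862 UMIs. Hemoglobin genes took 21.8% of its UMIs in control and 12.99% in DKO. The median of all genes was 0.20, and 0.046 when scaled without hemoglobin UMIs. The part of these differences in the ratios was not tested.

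The wider actin system was read from 8 lists of 89 genes, 88 of which are in the matrices. In late erythroid-like cells 7 of them had at least 20 CPM. All 7 were below 0, with a median of -0.53 against -0.16 over all genes. At least 2-fold lower in DKO was 1 of the 7, against 11.7% of all 742 genes of that level. It was Ptma, with 90.8 and 25.0 CPM (-1.86, -1.97 to -1.75). Ptma encodes prothymosin α, a small acidic nuclear protein that shares only its name with the β-thymosins. Arpc3, an Arp2/3 subunit, stood at 40.6 and 23.5 CPM (-0.79), Myl6, a myosin light chain, at 283 and 169 CPM (-0.75), and Rhoa, a GTPase that drives contractility, at 81.7 and 56.6 CPM (-0.53). Tmod1, the tropomodulin that caps the short filaments of the red cell membrane skeleton, was level at 53.5 and 52.5 CPM (-0.03, -0.12 to 0.07), and Diaph3, a formin, stood at 79.4 and 62.8 CPM (-0.34). Its interval lay above those of Tmsb4x and Actb in the same cells. Scaled without hemoglobin UMIs, 5 of the 7 were below 0 with a median of -0.27, Tmod1 stood at 0.24 and Ptma at -1.59, and per cell 3 of the 7 were below 0. In early erythroid-like cells 39 listed genes had at least 20 CPM, with a median of -0.13 against -0.01 over all genes. None was 2-fold lower or higher, where 0.768% of all 4560 genes of that level were lower and 0.0877% higher. Tmod1 was highest there with 0.54.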

How the data were processed

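Femoral marrow cells of 1 control and 1 DKO mouse were sequenced with 10x 3′ chemistry. Cell Ranger 7.1.0 on mm10 (per the submitters' processing notes) was run by the authors, who deposited raw UMI counts per gene and barcode, not normalized. Control cells were called here with an order-of-magnitude threshold of 4869 UMIs plus a Monte Carlo test of barcodes from 500 UMIs against barcodes of at most 100 UMIs (10000 iterations, false discovery rate 0.01), which kept 9663 and 9586 barcodes. Cells over 20% mitochondrial UMIs were removed (174 control, 215 DKO). Scrublet-style doublet scores at the DKO threshold (0.243) removed 512 and 413 cells, and the control's own threshold would have removed 595.

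Clusters (2000 variable genes without the members, 30 principal components, 15 neighbors, Leiden resolution 1.0, no integration) took the class whose markers had the highest mean log2 fold. No name was given where under 3 markers were raised, or where the 10 leading genes held more of some other class's markers than of the best class's. The same held where the leading genes had no marker of the best class and either the median UMI count was under 0.333 of the library's or under 5 markers were raised, the latter limit being added after the clusters were seen. UMIs were summed per class and library and scaled to CPM, and DKO was set over control as a log2 ratio, adding 1 count to each sum, with an exact conditional binomial interval. Levels carry exact Poisson and shares Clopper-Pearson intervals. Called means at least 2-fold among genes of at least 20 CPM (mean of the libraries). Scripts were tested on simulated data. The 8 members, the marker, pathway and free RNA lists were chosen with earlier results of these data known. Named genes were the 8 members, the genes of the genotype, the lowest and highest gene of each pathway list in late erythroid-like cells and the 3 genes most like each member; Coro1a in macrophage-like cells and the highest listed gene of early erythroid-like cells were singled out after their values were seen. The annotation the authors used is not given in the sources used here; 32235 of 32285 identifiers occur in GENCODE M21. Python 3.11.15, numpy 2.4.6, scipy 1.17.1, pandas 2.3.3, scikit-learn 1.9.0, igraph 0.11.9 and matplotlib 3.10.9 were used.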

Additional observations from a re-analysis of the deposited data

Results flagged for a closer look

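In 8 cases a gene was higher in DKO in another class, with its interval above 0, while it was lower in late erythroid-like cells. In megakaryocyte-like cells these were Tmsb4x (log2 ratio 0.35, against -1.62 in late erythroid-like cells), Actb (0.52, against -1.08), Actg1 (0.39, against -1.72) and Cfl1 (0.18, against -1.03). In that class 1 of the 107 DKO cells held 37.2% of the Tmsb4x, 28.0% of the Actb, 26.3% of the Actg1 and 24.7% of the Cfl1 UMIs, and without it the log2 ratios were -0.047, 0.32, 0.22 and 0.048, the last with an interval of -0.089 to 0.18. Actb was also higher in stromal-like cells (0.28, 2015 and 2441 CPM). Actg1 had a log2 ratio of 0.22 in neutrophil-like cells (2068 and 2402 CPM) and of 0.087 in monocyte-like cells (2977 and 3163 CPM). Coro1a had a log2 ratio of 0.076 in neutrophil-like cells (1001 and 1055 CPM), against -1.5 in late erythroid-like cells. The differences between the classes were not tested, since each genotype has 1 library. The median of all genes was 0.20 in megakaryocyte-like, 0.33 in stromal-like, 0.18 in neutrophil-like and 0.12 in monocyte-like cells. Cfl1 in megakaryocyte-like, Actb in stromal-like, Coro1a in neutrophil-like and Actg1 in monocyte-like cells thus lay below the median gene of their class. Hemoglobin genes took 21.8% of megakaryocyte-like UMIs in control and 12.99% in DKO, and 33.7% and 21.97% of stromal-like UMIs. Scaled without hemoglobin UMIs, the medians of all genes were 0.046, 0.092, 0.16 and 0.088 in the same order of classes. The part of hemoglobin in the higher values was not tested.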

How the results depend on the processing

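Unless another class is named, values here are for late erythroid-like cells, as the median log2 ratio of the 8 genes, the number of the 8 at least 2-fold lower and the number of all genes at least 2-fold lower, which were -1.35, 8 and 87. Keeping doublets gave -0.74, 1 and 44 of 844 genes (5.21%). Mean UMIs per cell gave -0.73, 2 and 7 of 742 genes (0.943%). Scaling without hemoglobin UMIs gave -1.08, 4 and 32 of 742 genes (4.31%). Matching the libraries on hemoglobin share gave -1.14, 5 and 33 of 741 genes (4.45%). Taking erythroid-like cells of at least 50% hemoglobin gave -1.15, 5 and 26 of 947 genes (2.75%), and turned Cfl1 to 0.25. Only cells with no free RNA UMI (99 control, 300 DKO) gave -2.03, 6 and 431 of 761 genes (56.6%), with a median of all genes of -1.14 and Tmsb10 at -0.37. Averaging each cell's CPM gave -1.20, 5 and 65 of 859 genes (7.57%). Centring on the median gene left 55 of 742 genes (7.41%) and subtracting the neutrophil list 56 of 705 (7.94%). Subtracting the B cell list gave values for Actb, Pfn1 and Cfl1 alone, 3 of the 8, since the others had no DKO UMIs left. That subtraction left 48 of 659 genes (7.28%). A minimum of 5 CPM gave 296 of 1910 genes (15.5%) and of 100 CPM 18 of 220 (8.18%). The other settings (no added count, barcodes above the threshold, 10% mitochondrial limit, Leiden 0.5 and 2.0, the largest cluster, thinning) kept the median between -1.27 and -1.54. Their backgrounds differed. In the largest cluster 36.7% of 343 genes were at least 2-fold lower, with a median of all genes of -0.79. Leiden 0.5 had 17.7% of 623 genes and a median of -0.33, and the rest had 11.3% to 12.7% of genes. Of 131 single-gene values, 130 were below 0. The cause of these shifts was not tested. No paired analysis was possible because each genotype has 1 library, which also left no replicate to leave out. In megakaryocyte-like cells, leaving out the DKO cell with the most UMIs of the 8 genes, chosen after seeing the data, turned Tmsb4x to -0.047 and Pfn1 to -0.10, and leaving out that cell of each library turned Coro1a to 0.033. Arpc1b, Coro1a and Tmsb10, with 134, 200 and 265 DKO UMIs in late erythroid-like cells, have the widest intervals of the members.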

Other observations

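The genes whose levels ran most like those of a member were read over 15 points in the control library (named classes, with the erythroid-like cells given by stage), among 4279 genes of at least 100 CPM in one of them. The points share a library and its free RNA, and the values are descriptions. Tmsb4x ran most like Wipf1, Wdr1 and Celf2 (Pearson r of 0.98 each in control and 0.98, 0.97 and 0.98 in DKO). Wipf1 encodes a partner of the actin nucleation factor WASP, and Wdr1 a cofactor of cofilin. Actg1 ran most like Arpc2, an Arp2/3 subunit (0.99 in both libraries), and Wdr1 (0.99 in both), Actb most like Pdcd6ip, Cdc42 and Arpc5 (0.98 to 0.99 in control), and Coro1a most like Sh3bgrl3, Gmfg and Arhgdib (0.98 to 0.99). Tmsb10 ran most like Ikbkb, Psmb10 and Psmb8 (0.95 to 0.96), of which the last 2 are subunits of the immunoproteasome, and none of its 3 was on the actin lists. Pfn1 ran most like Pdcd6ip, Ppp1r12c and Tle5, Cfl1 most like Ppp1ca, Mapre1 and Serf2, and Arpc1b most like Lrrfip1, Glud1 and Sptlc2. Among the members, Actb with Pfn1 (0.98) and Pfn1 with Cfl1 (0.97) were closest and Tmsb10 with Cfl1 (0.78) farthest in control.

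Plasma cell-like cells (44 control and 55 DKO cells) were too few to compare. They had 959 and 240 CPM of Tmsb4x and 1144 and 706 CPM of Actb, the lowest levels of both outside the erythroid-like cells. An unnamed cluster led by Il1b held 661 control and 529 DKO cells, with 78.1 and 47.6 CPM of Tmsb10.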
